A study of Bos taurus with 11 samples.

Results

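Methionine is an essential amino acid (EAA) that cells use both to build protein and, after conversion to S-adenosylmethionine, as the donor of methyl groups. It is also the residue with which translation of each protein starts. In dairy cows it is among the EAA whose supply can limit the secretion of milk protein by the mammary gland. Cells short of an EAA accumulate uncharged tRNA, which activates the kinase GCN2 and the transcription factor ATF4, and supply of amino acids also signals to growth through mTORC1.

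The comparison described here set low methionine (LM) against control (CTL) medium in BMEC (bovine mammary epithelial cells), which make and secrete milk, and asked which genes respond to a shortage of methionine. Primary BMEC from lactating Holstein cows were differentiated with lactogenic hormones and kept for 60 h in medium with 5 µM methionine (LM) or 20 µM methionine (CTL), and both media held 80 µM lysine and 40 µM histidine. LM replicates 1 and 3 were compared with CTL replicates 1 and 2, and LM replicate 2, which the study left out for quality, served only as a check of direction. Media low in histidine (LH, 10 µM histidine) and low in lysine (LK, 20 µM lysine), with 3 libraries each and 20 µM methionine, entered the fit and are used below for direct comparisons. Genes were described if they averaged 200 or more raw counts over the 4 libraries, a limit that 12775 of the 27607 Ensembl genes in the table of counts reached. These genes made up 69.6% of the 18345 genes tested and held 99.9% of the reads in each of the 4 libraries. Their mean raw counts ran from 200 to 5191627, with a median of 5644. The lowest gene inside the limit averaged 200 counts and the highest gene outside it 199.75.

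The 4 libraries held between 220425791 and 257192037 reads counted on genes, and LM replicate 2 held 173982461. Of the 12775 genes, 22 had a count of 0 in at least 1 of the 4 libraries, and 77 had a count of 0 in LM replicate 2. The table pairs its identifiers with no gene names, so 2 genes that rose and 2 that fell are given by identifier, the other genes are given by counts and ranges, and the label of the cells could not be checked against marker genes. The sources do not say whether the wells came from different cows, so the p-values measure the spread between these cultures only. In bulk RNA, a change in the cells present and a change in RNA per cell cannot be told apart.

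Relative to CTL, 104 of the 12775 genes rose in LM and 93 fell, where a gene had to pass an FDR of 0.05 and differ by 1 or more on the log2 scale (edgeR's quasi-likelihood test, Benjamini-Hochberg adjustment over all genes tested). These 197 differentially expressed genes (DEG) were 1.54% of the genes described, against 1.47% of all genes tested, so that genes with 200 or more counts were called about as often as all genes. For higher genes the share was 0.814% against 0.807%, and for lower genes 0.728% against 0.66%. A total of 1097 further genes passed the FDR with a smaller fold change, 544 of them higher and 553 lower. By FDR alone, 1294 genes (10.1%) differed, 648 higher and 646 lower, against 7.45% of all genes tested. In this fit the DEG were split almost evenly between the directions, but the split moved with the setting. With library size as the only scaling, the 193 genes called were 125 higher and 68 lower, and without CTL replicate 2 the 326 genes called were 222 higher and 104 lower. With glmTreat, which tests against a 2-fold change, 12 higher and 2 lower genes were called. Another 306 genes had a fold change past the limit without passing the FDR.

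Most of the changes were moderate. Of the higher genes, 70 rose by less than 3-fold, 16 rose from 3-fold to less than 4-fold and 18 rose by 4-fold or more, with a median log2 fold change of 1.34 and quartiles of 1.11 and 1.69. Of the lower genes, 80 fell by less than 3-fold, 6 fell from 3-fold to less than 4-fold and 7 fell by 4-fold or more, with a median log2 fold change of -1.19 and quartiles of -1.39 and -1.08. Higher and lower DEG averaged a median of 1287 and 1785 raw counts, below the median of all genes described. Of the 25 DEG that changed by 4-fold or more, 23 averaged under 1000 counts, and the other 2, described next, averaged over 10000. The spread of uncalled genes narrowed as the counts rose.

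**Figure D1:**
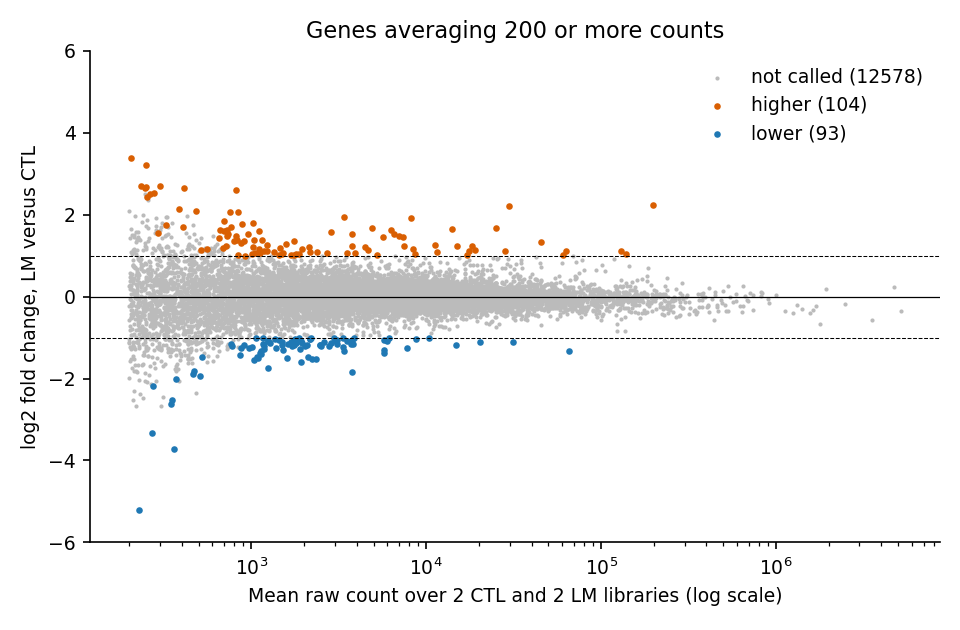
Log2 fold change of LM versus CTL (vertical axis) against the mean raw count over the 4 libraries (horizontal axis, log scale) for genes averaging 200 or more counts. Orange and blue points are the 104 genes higher and the 93 genes lower in LM, grey points are genes not called, dashed lines mark a log2 fold change of 1 in either direction, and 1 called gene with 0 reads in both CTL libraries lies beyond the axis.

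The 4 genes given by identifier were picked among DEG for which LM replicate 2 lay beyond both CTL libraries in the direction of the call, so its side is fixed by that choice and is no check for them. The gene with the smallest p-value was ENSBTAG00000052665. It had 11725 and 9204 normalized counts in CTL replicates 1 and 2 and 48554 and 49046 in LM replicates 1 and 3. LM replicate 2 had 50682, and the 3 LM libraries lay close together. Means were 10464 ± 1782 in CTL (SD, n = 2) and 48800 ± 348 in LM (SD, n = 2), a log2 fold change of 2.22 with a standard error of 0.09. The edgeR adjusted p-value was 7.00e-28. This gene also rose in the other deficiencies, to between 31215 and 37924 normalized counts in LH and between 66463 and 73139 in LK. In direct comparisons its level in LM was higher than in LH by 0.52 on the log2 scale (standard error 0.08) and differed from that in LK by -0.54 (standard error 0.08), with edgeR adjusted p-values of 1.34e-05 and 4.26e-06. The level in LM thus differed from that in either of the other deficiencies and lay between them, with no overlap of libraries.

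ENSBTAG00000020873, next by p-value, was also among the abundant genes, with a mean raw count higher than or equal to that of 98.9% of the genes described. CTL replicates 1 and 2 had 68625 and 67978 normalized counts, and LM replicates 1 and 3 had 326920 and 316571. LM replicate 2 had 292670, below both of the other LM libraries. Means were 68302 ± 457 in CTL (SD, n = 2) and 321746 ± 7318 in LM (SD, n = 2), a 4.71-fold rise or a log2 fold change of 2.24 (standard error 0.10, edgeR adjusted p = 7.00e-28). In LH the gene stayed between 64171 and 67802 normalized counts. In LK it had 67614, 69977 and 102408 normalized counts in replicates 1, 2 and 3, with replicate 3 apart from the others. Its log2 fold change was 2.29 in LM versus LH (standard error 0.08) and 2.00 in LM versus LK (standard error 0.08), with edgeR adjusted p-values of 2.12e-31 and 2.54e-28. DESeq2 gave wider standard errors, 0.18 in each of these comparisons and 0.20 in LM versus CTL. Relative to CTL, the gene differed by -0.05 on the log2 scale in LH (standard error 0.08, edgeR adjusted p = 0.834) and by 0.24 in LK (standard error 0.08, edgeR adjusted p = 0.0469). It was the 1 gene among the 197 DEG that also passed both thresholds against LH and against LK and lay further from CTL in LM. By FDR alone, 2 of the 104 higher genes and 1 of the 93 lower genes did so. How many of all genes described did so was not counted.

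ENSBTAG00000011839 had the smallest p-value among the genes that fell. It had 93793 and 94280 normalized counts in CTL replicates 1 and 2 and 36945 and 38057 in LM replicates 1 and 3. LM replicate 2 had 32287, the lowest of the 3 LM libraries. The mean fell from 94036 ± 345 in CTL (SD, n = 2) to 37501 ± 786 in LM (SD, n = 2), a log2 fold change of -1.33 (standard error 0.08, edgeR adjusted p = 1.88e-21). Levels in LK, from 33282 to 36515 normalized counts, were near those of LM, and the difference of 0.08 on the log2 scale (standard error 0.07) had an edgeR adjusted p-value of 0.606. Levels in LH, from 69175 to 71679, lay between CTL and LM, and LM differed from LH by -0.90 (standard error 0.07, edgeR adjusted p = 1.00e-14).

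ENSBTAG00000053103 fell with a wider spread. CTL replicates 1 and 2 had 38355 and 48363 normalized counts, and LM replicates 1 and 3 had 17883 and 22248. LM replicate 2 had 21311, within the range of the other LM libraries. Means were 43359 ± 7077 in CTL (SD, n = 2) and 20065 ± 3086 in LM (SD, n = 2), a log2 fold change of -1.11 (standard error 0.10, edgeR adjusted p = 2.05e-13). Without CTL replicate 2 or without LM replicate 1 the log2 fold change was -0.94 or -0.96, short of the fold change limit, and the edgeR adjusted p-values of 1.87e-07 and 4.25e-06 still passed. LH had 22414 to 25828 normalized counts and LK 18563 to 20367, and neither difference from LM passed the test (-0.25 and 0.05 on the log2 scale, each with a standard error of 0.09, edgeR adjusted p-values of 0.161 and 0.861). 

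**Figure D2:**
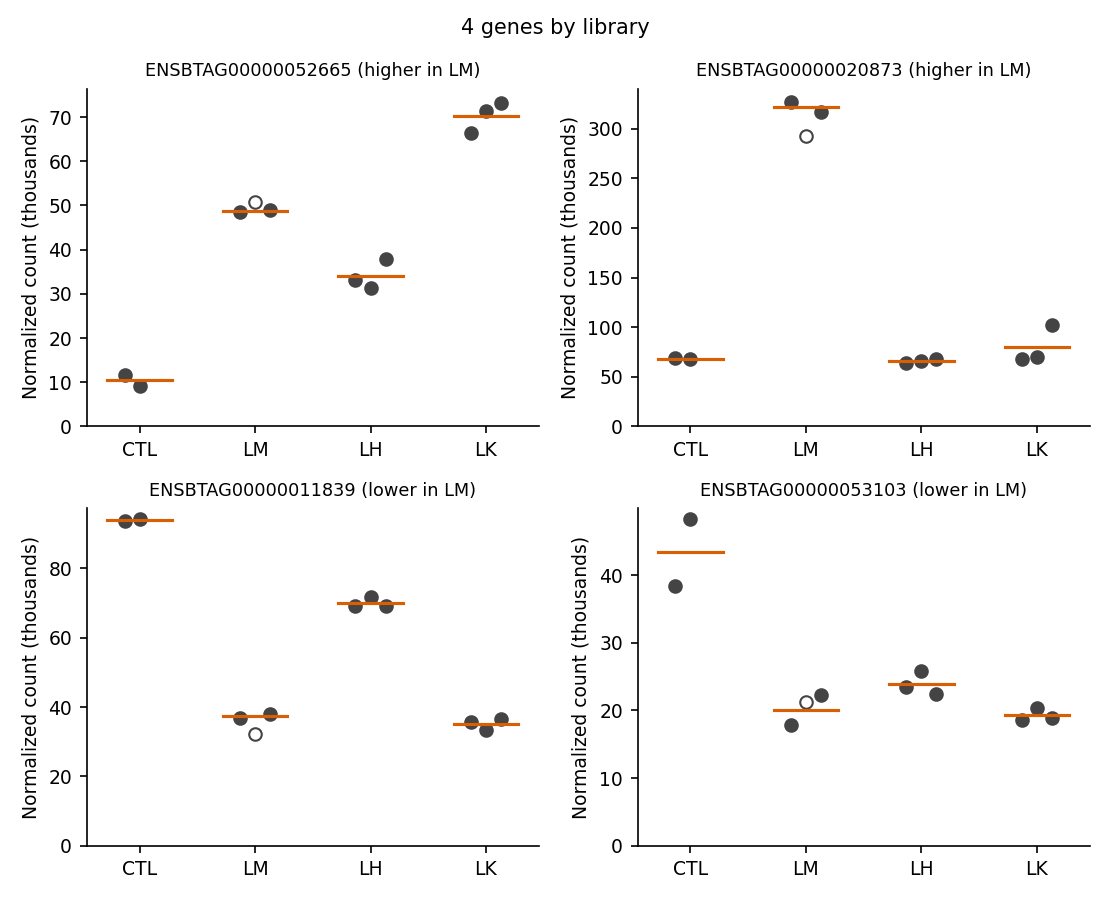
Normalized counts (vertical axes, from 0, in units of 1000) of the 4 genes in each library of CTL, LM, LH and LK. Filled points are the 10 libraries in the fit, the open point is LM replicate 2, and orange lines are means of the filled points; ENSBTAG00000020873 lies far higher in the LM libraries than in any other library, and LK replicate 3 lies above the other LK libraries for this gene.

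Of the 12775 genes, 1 had 0 reads in both CTL libraries. It had 790 and 626 raw counts in LM replicates 1 and 3 and 450 in LM replicate 2, and in its other libraries 84 to 346 raw counts in LH and 708 to 818 in LK. All 9 of its counts above 0 were even, and so were 75.3% to 79.8% of all counts from 1 to 100 in each library, as arises where both mates of a read pair are counted. With a floor of 3 read pairs, or 6 counts, over both CTL libraries, which covers counting error only, it was at least 237-fold higher in LM. It was among the 104 higher genes. With 0 reads in both CTL libraries, it reached the limit on mean raw counts only through the LM libraries. It therefore belongs to the higher DEG of this kind that are counted below. No gene described had 0 reads in both LM libraries.

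The DEG took a small part of the RNA. The 104 higher genes held 0.221% and 0.233% of the reads in CTL replicates 1 and 2 and 0.643% and 0.594% in LM replicates 1 and 3. In LM replicate 2 they held 0.540%, in LH 0.418% to 0.458% and in LK 0.603% to 0.660%. ENSBTAG00000020873 alone held 0.138% and 0.135% of the reads in LM replicates 1 and 3, and without it the other higher genes held 0.506% and 0.459% in LM and 0.193% and 0.205% in CTL. The 93 lower genes held 0.186% and 0.193% in CTL, 0.0815% and 0.0891% in LM replicates 1 and 3, 0.0809% in LM replicate 2, 0.107% to 0.113% in LH and 0.0724% to 0.0759% in LK. These genes were chosen for their difference between LM and CTL, so the gap between those groups is a description, and LH and LK share the same CTL libraries.

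**Figure D3:**
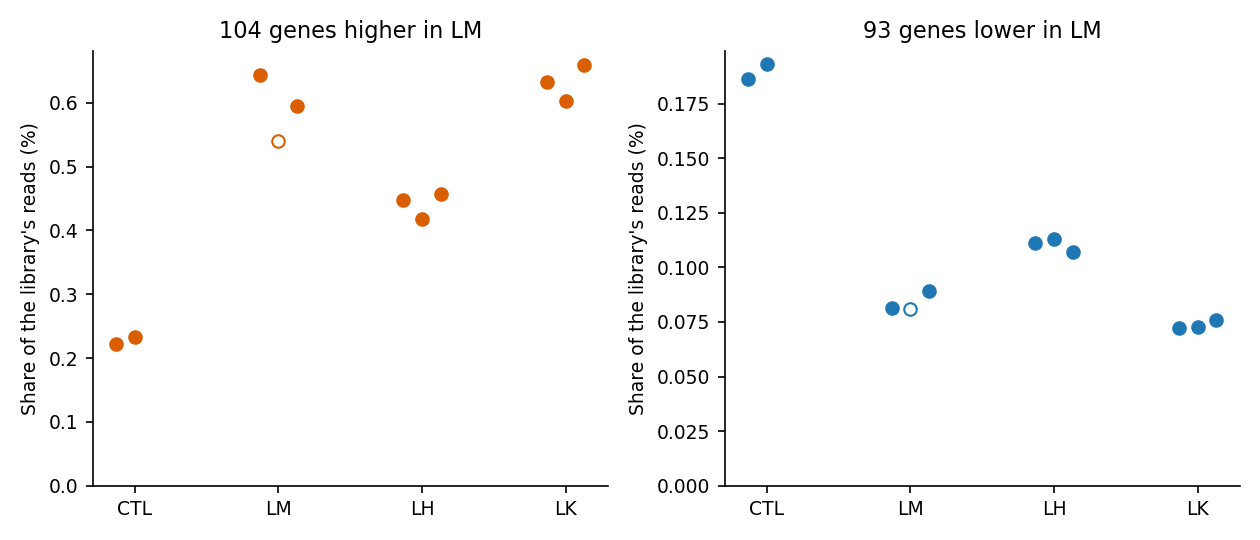
Share of each library's reads (percent, vertical axes, from 0) held by the 104 genes higher in LM and the 93 genes lower in LM, by group. Filled points are libraries in the fit and the open point is LM replicate 2; for the higher genes LH lies between CTL and LM, and for the lower genes LK lies below LM.

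Of the 13 most abundant genes, most were lower in LM, by less than 2-fold. The 13 genes that averaged 1000000 raw counts or more, a limit set after the values had been seen, had log2 fold changes from -0.67 to 0.23 with a median of -0.33. All 13 passed the FDR alone, 11 lower and 2 higher (edgeR's quasi-likelihood test), and none passed the fold change limit. By FDR alone 10.1% of all genes described and 7.45% of all genes tested passed, and genes with more counts passed more often, 732 of the 4388 averaging 10000 or more. With library size as the only scaling, 10 were lower and 2 higher by FDR. Together they held 13.1% and 13.3% of the reads in CTL replicates 1 and 2, 11.7% and 11.4% in LM replicates 1 and 3 and 11.8% in LM replicate 2. The CTL libraries were thus above each LM library by a larger margin than the replicates differed. The share was 12.3% to 13.4% in LH and 11.2% to 11.4% in LK. Among the 360 genes averaging 100000 counts or more, 228 had a negative fold change, with a median log2 fold change of -0.06, and with library size as the only scaling 186 did, with a median of -0.0099. By FDR alone, to be read beside the same shares, 34 of them were higher and 95 lower, or 46 and 81 with library size as the only scaling. They held 45.5% of the reads in each CTL library and 43.7% and 43.3% in LM replicates 1 and 3, but 46.7% in LM replicate 2, above both CTL libraries.

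LM replicate 2 took no part in the calls and gave a check on their direction. Of the 104 higher genes, it lay above both CTL libraries for 90 (86.5%), against 55.0% of the 6497 genes described with a positive fold change. Of the 93 lower genes, it lay below both CTL libraries for 82 (88.2%), against 56.5% of the 6278 genes with a negative fold change. Both values rest on the same CTL libraries as the calls and are given as a description. The median log2 ratio to the mean of CTL was 1.10 in LM replicate 2 for the higher genes, beside 1.40 and 1.20 in LM replicates 1 and 3. For the lower genes it was -1.15, beside -1.28 and -1.16. LM replicate 2 was thus shifted to a like extent for the lower genes and somewhat less for the higher genes. The genes were called on LM replicates 1 and 3 and not on LM replicate 2, so these medians do not stand on equal terms. The 22 DEG averaging 10000 counts or more all lay on the side of the call, and the 25 that did not all averaged fewer counts. A count of 0 in LM replicate 2 was found for 2 of the 197 DEG. With LM replicate 2 added to the fit, 138 genes were called, 76 higher and 62 lower, and 114 of them were among the 197.

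**Figure D4:**
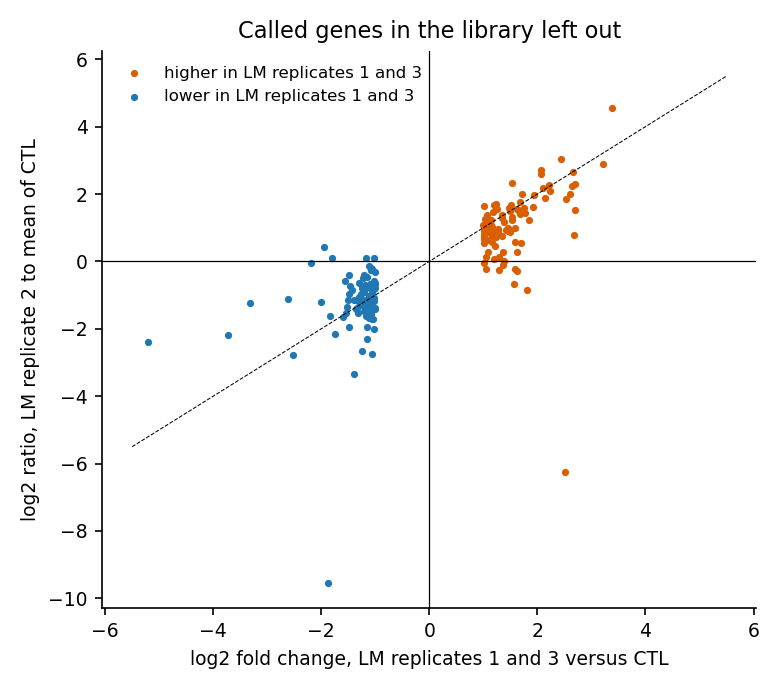
Log2 ratio of LM replicate 2 to the mean of CTL (vertical axis) against the log2 fold change of LM replicates 1 and 3 versus CTL (horizontal axis) for the DEG, leaving out the 1 beyond 6 on the horizontal axis. Orange points are genes higher and blue points genes lower in LM, and the dashed line marks equal values; most points lie in the quadrants of equal direction, and both axes share the CTL libraries.

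How small a change could be called depended on the counts. Among the 2127 genes averaging 200 to under 1000 counts, 40 rose and 17 fell (2.68% called). Among the 6260 genes averaging 1000 to under 10000 counts, 47 rose and 71 fell (1.88%), and among the 4388 genes with 10000 or more, 17 rose and 5 fell (0.501%). These counts include 16 higher and 7 lower DEG that reached 200 counts only through the group in which they were high. Their split among the classes was not counted. The median absolute log2 difference between CTL replicates 1 and 2 was 0.66, 0.23 and 0.10 in these classes, and between LM replicates 1 and 3 it was 0.54, 0.19 and 0.10. The difference between the LM and CTL means had medians of 0.49, 0.20 and 0.12. For a typical gene below 10000 counts, LM and CTL therefore differed by about as much as, or less than, the replicates did, although a difference between means of 2 libraries varies less than one between single libraries. By FDR alone, 320 genes were higher and 412 lower in the highest class, whereas in the lowest class the 57 genes past the FDR were also the 57 past the fold change limit. The median standard error of the log2 fold change was 0.55, 0.17 and 0.09, and no gene of the lowest class passed the FDR with a change of less than 2-fold.

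**Figure D5:**
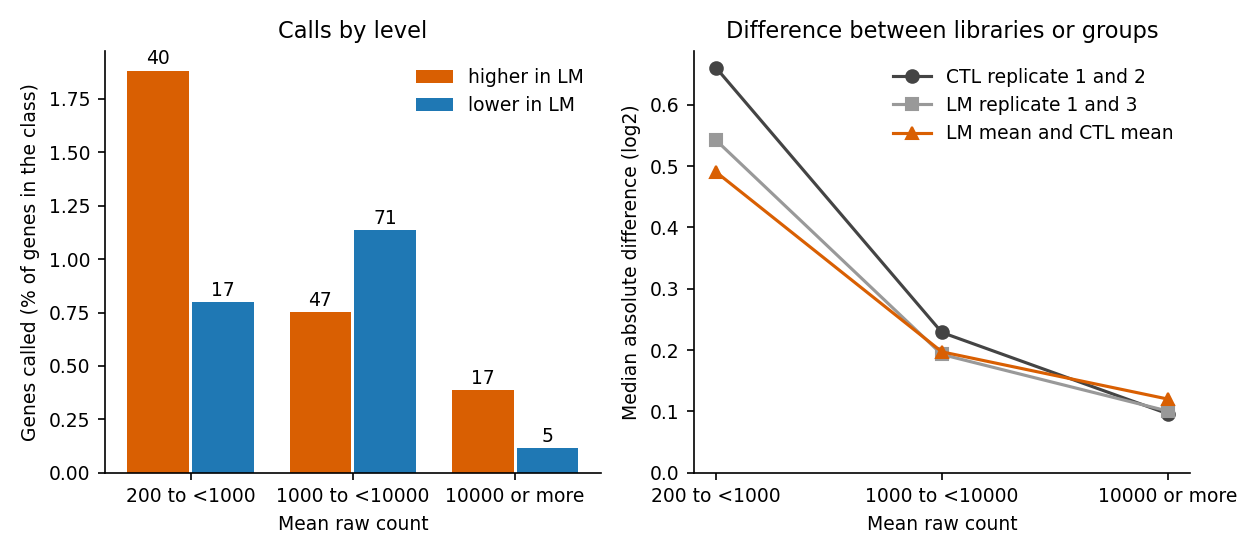
Left, percent of genes called higher (orange) and lower (blue) in LM in 3 classes of mean raw count, with the number of genes above each bar. Right, median absolute log2 difference between CTL replicates 1 and 2 (dark circles), LM replicates 1 and 3 (grey squares) and the LM and CTL means (orange triangles); all 3 fall as the counts rise, and the difference between means is above both replicate differences in the highest class.

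In CTL and LM, the libraries did not overlap for 196 of the 197 DEG. The DEG were called on these same libraries, so this count is a description. Over all genes described, the groups did not overlap for 5971 (46.7%), against 37.9% of all genes tested, so that non-overlap of 2 and 2 libraries is common. Among the DEG, the CTL replicates were more than 2-fold apart for 22 genes and the LM replicates for 18. A set of 23 DEG reached 200 counts through the group in which they were high, 16 of the higher genes and 7 of the lower genes, and 174 DEG averaged 200 or more counts in each group alone.

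The 197 DEG were also compared directly between LM and the other deficiencies. Since they were chosen with the LM libraries, these counts are given beside those of all genes described at the same threshold. Over all genes described, 127 passed both thresholds between LM and LK (0.994%, against 0.861% of all genes tested), 77 higher and 50 lower in LM. By FDR alone 956 did (7.48%, against 5.38% of all genes tested), 446 higher and 510 lower. Of the 104 genes that rose in LM versus CTL, 11 were lower in LM than in LK and 2 higher at both thresholds, and 17 and 6 by FDR alone. Of the 93 genes that fell, 14 were higher in LM than in LK and 1 lower at both thresholds, and 25 and 2 by FDR alone. For DEG that differed between these deficiencies, LM thus lay closer to CTL than LK did in most cases. Between LM and LH, 15 of all genes described passed both thresholds (0.117%, against 0.164% of all genes tested), 7 higher and 8 lower in LM, and 432 passed by FDR alone (3.38%, against 2.44%), 179 higher and 253 lower. Of the 104 genes, 3 were higher in LM than in LH and 1 lower at both thresholds, and 14 and 7 by FDR alone. Of the 93 genes, 2 were lower in LM than in LH at both thresholds and 8 by FDR alone, and none was higher (edgeR's quasi-likelihood test). With fold changes relative to the shared CTL libraries, the 104 genes had a median log2 fold change of 1.34 in LM, 1.02 in LH and 1.44 in LK, and the 93 genes -1.19, -1.01 and -1.58.

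A subset of 48 DEG was called in each of 12 further fits, which left out 1 CTL or LM library, added LM replicate 2, kept only the 4 libraries, changed the scaling or the limit on low counts, added the replicate number, or used DESeq2. The test with glmTreat, which called 14 genes, was not among these fits. Of the 48 DEG, 29 rose and 19 fell. They averaged a median of 3577 raw counts, against 1242 for the other DEG, and made up 7 of the 57 DEG in the lowest class of counts, 32 of 118 in the middle class and 9 of 22 in the highest. By FDR alone, which 3.38% of all genes described passed between LM and LH and 7.48% between LM and LK, 10 of the 29 were higher in LM than in LH and 2 lower, and 4 were higher and 6 lower than in LK. Of the 19, 8 were higher in LM than in LK, and 1 was lower than in LH.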

How the data were processed

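RNA-Seq libraries of BMEC kept for 60 h in CTL, LM, LH or LK medium were analysed from the deposited table of raw counts per gene. The authors made TruSeq stranded mRNA libraries, ran fastp on the reads, used STAR for alignment to ARS-UCD1.2 and counted them with featureCounts on an Ensembl annotation. How counting treated strand and read pairs is not given in the sources used here, so overlapping genes and near-identical copies may share reads. Most low counts were even, so counts are taken as single reads, of which a pair can give 2. LM replicate 2 was left out of the main fit, as in the study. CTL replicate 3 was not analysed here.

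Counts of 10 libraries were fitted in R 4.3.3 with edgeR 4.0.16 (quasi-likelihood test, 4 groups, TMM, no covariates). The fit of all groups shares 1 estimate of the spread, because 2 against 2 libraries leave few degrees of freedom. Genes with more than 10 reads in all were tested and p-values adjusted by the Benjamini-Hochberg method over all of them. Standard errors came from the quasi-likelihood F statistic. For normalized counts, CPM scaled by TMM over 11 libraries were multiplied by the mean total of the 10. Log2 differences between libraries used a pseudocount of 1. Alternatives included DESeq2 1.42.0.

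The RefSeq table of 37063 genes holds 0 Ensembl identifiers, so 0 genes could be named and the gene lists of pathways and cell type markers could not be used. Genes given by identifier are, in each direction, the 2 DEG with the smallest p-values whose value in LM replicate 2 lay on the side of the call. The genes described and the tests were chosen with earlier results of these data known. PCR copies were not marked by molecular identifiers, so totals overstate the precision of counts. Python 3.11.15 with matplotlib 3.10.9 drew the figures.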

Additional observations from a re-analysis of the deposited data

Results flagged for a closer look

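Of the 4 genes given by identifier, 3 differed between LM and another deficiency by FDR alone in a direct test (edgeR's quasi-likelihood test, Benjamini-Hochberg adjustment). By FDR alone, 7.48% of all genes described passed between LM and LK and 3.38% between LM and LH (5.38% and 2.44% of all genes tested). The 4 genes were picked by p-value in LM versus CTL, with the same LM libraries. ENSBTAG00000020873 differed by a log2 fold change of 2.00 in LM versus LK and 2.29 in LM versus LH, and the LM libraries were above each LK and LH library. ENSBTAG00000052665 differed by -0.54 in LM versus LK and 0.52 in LM versus LH. ENSBTAG00000011839 differed by -0.90 in LM versus LH. Groups held 2 or 3 libraries, so no single library was tested as an outlier.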

How the results depend on the processing

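The number of genes called between LM and CTL (197) stayed within 1.5 times under most alternatives, from 138 with all 11 libraries to 229 with DESeq2. It moved to 1294 with FDR alone and to 14 (12 higher, 2 lower) with glmTreat, which tests against a 2-fold change in place of none. Leaving out single libraries gave 128 to 326 genes, with 326 (222 higher, 104 lower) without CTL replicate 2 and 128 without LM replicate 1, and 55 of the 197 were called in all 4 of these fits. A lone library was then assumed to vary like the other groups. The number called between LM and LH moved from 15 to 29 with DESeq2. With the replicate number as a block, 187 genes were called (99 higher, 88 lower), 158 of them among the 197. Over the genes described, deviations of same-numbered libraries correlated between -0.19 and 0.07 in 15 pairs, so the numbers were not taken to pair the libraries. The log2 fold changes in LM versus CTL kept their direction for all 4 genes given by identifier in 14 fits, from 2.06 to 2.41 for ENSBTAG00000052665, 2.12 to 2.29 for ENSBTAG00000020873, -1.39 to -1.27 for ENSBTAG00000011839 and -1.28 to -0.94 for ENSBTAG00000053103. A median ratio over the genes described, a scaling chosen after seeing the data, called 198. The causes of these shifts were not tested.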
